A study of Mus musculus with 18 samples.

Results

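The genes described here encode the nuclear subunits of respiratory complexes III, IV and V, together with cytochrome c, in the left ventricle of mice that carry a cyclin D2 transgene and of WT mice. They were taken from a fixed list of subunit names and not by any measured value: 9 genes of complex III, cytochrome c (Cycs), 14 genes of complex IV and 13 genes of complex V, 37 genes of the 38355 identifiers counted. All 37 passed the filter on low counts that left 14876 genes for testing. The subunits that mitochondrial DNA encodes were not analysed here.

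Complex III takes electrons from ubiquinol and hands them to cytochrome c, a small soluble protein that carries them to complex IV, where oxygen is reduced to water. Both complexes pump protons out of the mitochondrial matrix, and complex V, the ATP synthase, lets the protons flow back and uses that flow to make ATP. The beating heart depends on this chain for nearly all of its ATP, and its muscle cells carry heart and skeletal muscle forms of several complex IV subunits in place of the forms that most other tissues use.

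RNA from left ventricular myocardium of (DBA/2J x C3HeB/FeJ)F1 mice was sequenced in 18 libraries that form 4 groups. The cycD2 TAC group (n = 3, replicates 1, 2 and 4) comprised hearts labelled as from MHC-cycD2 mice, in which the alpha-myosin heavy chain promoter drives cyclin D2 in heart muscle cells, after transverse aortic constriction, a pressure load that was made milder than usual. The cycD2 Shunt group (n = 5) comprised MHC-cycD2 mice with an aortocaval shunt, a volume load. The cycD2 sham group (n = 5) comprised MHC-cycD2 mice after a sham operation; a sham is described for each procedure and which of them a mouse received is not stated. The WT group (n = 5) comprised wild-type mice with no treatment. Surgery was done at 8 weeks of age in mice of both sexes, and the sex of a given mouse is not stated. By their labels the TAC, Shunt and sham groups share the transgene, and the comparison of sham with WT joins genotype and sham surgery, which cannot be told apart. The labels give separate samples and no more on how mice of a group relate, so each p-value rests on the spread among these libraries alone.

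Gene counts summed to between 19297821 and 30594075 per library. Ccnd2, the transgene's product, reached 17740 to 30480 CPM (counts scaled to library size with TMM factors) in 12 of the 13 libraries labelled cycD2 and 140.5 to 189 CPM in WT libraries, whereas the library labelled TAC 2 had 228.2 CPM. Xist, transcribed in female cells, had 3659 and 2644 counts in TAC libraries 1 and 2, 3408 to 5787 counts in Shunt libraries, and 4 to 13 counts in the remaining 11 libraries, TAC 4 among them. The clock gene Arntl exceeded its opposite-phase partner Dbp in every TAC library, in sham 1 and 2 and in WT 1 to 3, and Dbp exceeded Arntl in every other library, all 5 Shunt libraries included. Counts of members called in TAC comparisons are therefore also given without the library labelled TAC 2, which goes against its label.

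Upstream DNA windows are shown for members whose levels or isoform ratios differed between groups, since subunits of a complex are encoded on different chromosomes and their promoters need not look alike. RefSeq (GRCm38.p6) gave the 250 bases upstream of its gene start for 28 of the 37 members. Each window reads 5′ to 3′ on the gene's strand, and capitals mark a motif found on either strand. The first belongs to Cox6a1, the form of subunit 6a of most tissues, followed by the most tissues' form and the heart form of subunit 7a (Cox7a2, Cox7a1), those of subunit 8 (Cox8a, Cox8b), and the beta subunit of ATP synthase (Atp5b).
Cox6a1 (chr5:115348959-115349208, minus strand): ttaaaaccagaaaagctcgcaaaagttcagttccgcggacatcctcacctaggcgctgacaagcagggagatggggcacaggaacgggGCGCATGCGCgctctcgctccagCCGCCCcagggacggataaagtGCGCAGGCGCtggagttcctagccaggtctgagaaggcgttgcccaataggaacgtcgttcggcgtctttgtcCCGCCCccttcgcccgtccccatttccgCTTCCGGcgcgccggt
Cox7a2 (chr9:79759854-79760103, minus strand): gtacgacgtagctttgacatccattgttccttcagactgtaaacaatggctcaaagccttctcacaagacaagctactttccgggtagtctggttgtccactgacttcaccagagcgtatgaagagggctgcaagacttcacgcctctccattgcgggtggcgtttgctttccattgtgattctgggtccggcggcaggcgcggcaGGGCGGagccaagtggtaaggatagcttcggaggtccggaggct
Cox7a1 (chr7:30183921-30184170, plus strand): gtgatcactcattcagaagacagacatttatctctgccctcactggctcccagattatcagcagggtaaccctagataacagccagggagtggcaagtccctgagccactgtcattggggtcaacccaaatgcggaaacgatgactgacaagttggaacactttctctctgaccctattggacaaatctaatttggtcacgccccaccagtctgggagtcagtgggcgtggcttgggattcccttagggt
Cox8a (chr19:7217617-7217866, minus strand): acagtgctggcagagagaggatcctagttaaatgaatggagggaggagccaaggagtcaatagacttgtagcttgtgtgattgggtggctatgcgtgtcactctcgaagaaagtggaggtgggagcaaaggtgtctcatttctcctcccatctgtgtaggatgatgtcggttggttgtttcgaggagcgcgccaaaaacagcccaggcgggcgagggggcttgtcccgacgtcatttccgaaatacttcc
Cox8b (chr7:140900447-140900696, minus strand): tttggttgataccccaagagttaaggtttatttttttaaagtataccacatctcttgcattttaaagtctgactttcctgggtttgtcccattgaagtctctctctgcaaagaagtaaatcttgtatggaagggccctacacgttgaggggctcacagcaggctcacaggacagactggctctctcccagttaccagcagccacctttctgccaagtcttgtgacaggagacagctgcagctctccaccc
Atp5b (chr10:128083057-128083306, plus strand): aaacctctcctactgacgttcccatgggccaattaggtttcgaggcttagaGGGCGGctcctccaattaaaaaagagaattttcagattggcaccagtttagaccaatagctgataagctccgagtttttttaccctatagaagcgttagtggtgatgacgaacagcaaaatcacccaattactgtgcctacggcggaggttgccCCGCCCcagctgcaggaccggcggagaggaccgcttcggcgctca
Searched motifs were GCGCA and GCGC with 1 base between them (NRF1, nuclear respiratory factor), CCGGAAG (ETS family, which includes GABP), AAGGTCA (ERR, estrogen-related receptors), CTANNNNTAG (MEF2, a muscle factor) and GGGCGG (SP1), on both strands. N stands for any base, so the MEF2 letters are a loose form of that site. The Cox6a1 window held NRF1 matches 162 and 117 bases before the start, an ETS match at 16 bases and SP1 matches at 139 and 44 bases. Cox7a2 held an SP1 match 44 bases before the start and Atp5b held SP1 matches at 199 and 45 bases, while the windows of Cox7a1, Cox8a and Cox8b held none of these letters.
Among the 28 member windows, an ETS match stood in 7 (25.0%, against 6.9% of the 32851 windows of all genes) and an NRF1 match in 3 (10.7%, against 3.7%), in Cox6a1, Atp5h and Atp5k. ERR letters stood in 2 (7.1%, against 4.1%), MEF2 letters in 1 (3.6%, against 3.2%) and SP1 letters in 6 (21.4%, against 32.7%). Each member window lies at the start nearest to its main coding transcript. The 32851 windows were not limited in that way or to coding genes, so the shares come from unlike sets. A match is a description of the letters and not of a bound site.

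On the scale of CPM per kilobase of transcript, levels in sham libraries spanned from Atp5b, at 4960 CPM per kb, to Cycs, at 9.41 CPM per kb. Cox6a2 (3296), Atp5g3 (3117), Atp5a1 (3019), Cox4i1 (2647) and Cox7a1 (2249 CPM per kb) followed Atp5b. The isoforms of other tissues stood lower, with Cox7a2 at 778, Cox8a at 289, Cox6a1 at 192 and Cox4i2 at 14.5 CPM per kb. Atp5g1 (37.1), Cox7c (31.0) and Atp5l (26.9 CPM per kb) were also low on this scale, which divides by the length of 1 transcript per gene, 4715 bases for Atp5g1. Those last 3 genes and Cycs share long stretches with other transcripts, since transcripts of other genes at 98% identity or more over at least 50 bases covered 72.2% of the Atp5l transcript, 58.3% of Cox7c, 34.2% of Cycs and 14.4% of Atp5g1. The deposited counts leave out reads that fit several places equally well, so levels of these genes are uncertain. Such stretches also covered parts of Atp5h (77.6%), Uqcrb (68.6%), Cox5b (45.1%), Cox5a (42.0%), Uqcr11 (38.4%) and Atp5j (33.4%). Smaller parts were covered in Uqcrc2 (26.7%), Cox4i1 (20.1%), Atp5o (19.8%), Cox6a2 (10.3%) and Atp5a1 (5.2%), and 22 members had no such stretch. The search did not set apart genes that overlap a member at the same place, where reads need not fit several places. Uqcrb, Cox5a, Atp5j, Uqcrc2, Cox4i1, Atp5o, Cox6a2 and Atp5a1 overlap exons of such a gene, so their stretches may be of that kind.

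**Figure D1:**
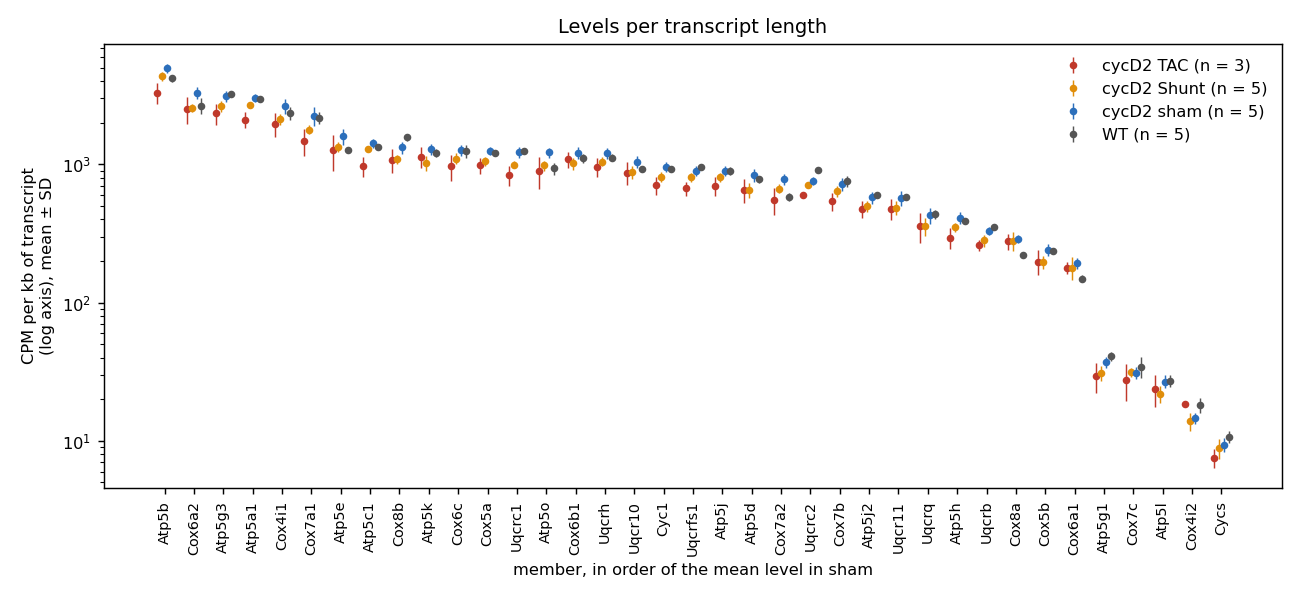
Mean level of each of the 37 members in CPM per kb of transcript (log axis, error bars SD) in TAC (n = 3), Shunt, sham and WT libraries (n = 5 each), ordered by the level in sham. Atp5b stands highest at 4960 CPM per kb in sham libraries, and the 5 lowest members, Atp5g1, Cox7c, Atp5l, Cox4i2 and Cycs, lie between 37.1 and 9.41 CPM per kb.

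Most members were lower in TAC hearts than in sham hearts. Of the 37 members, 23 fell in TAC and 1 rose at an adjusted p under 0.05 (edgeR quasi-likelihood test, Benjamini-Hochberg over 14876 genes), where 14.5% of all genes fell and 16.4% rose. The median log2 fold change of the members was -0.34, with a range of -0.61 to 0.35, the median of all genes was 0.01, and 36 members were below 0 where 49.3% of all genes were. Fold changes are given on the log2 scale ± SE throughout. In 16 members every TAC library lay below every sham library and in 1 member every TAC library lay above (13.6% and 14.5% of all genes). Complex III had 6 of 9 members lower, complex IV 8 of 14 lower and 1 higher, and complex V 9 of 13 lower. In bulk tissue, fewer cells of a type and less RNA per cell cannot be told apart. TAC 1 and the library labelled TAC 2 carry Xist and no sham library does, so that load and sex are partly joined in this comparison.

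Shunt hearts stood slightly below sham hearts in nearly every member, and none passed the test. Against sham, 0 of the 37 members were called in Shunt in either direction, where 0.134% of all genes fell and 0.108% rose. All members but Cox7c had log2 fold changes below 0, 36 of 37 where 49.2% of all genes did, with a median of -0.23 and a range of -0.37 to 0.02. At an unadjusted p under 0.05, 27 members were lower and 0 higher (7.07% and 7.5% of all genes). With limma-voom 0 were called, and DESeq2 called 3 lower, Uqcrc1, Cox5a and Cox6a2, where it called 0.814% of all genes lower. In 10 members every Shunt library lay below every sham library, and in 0 members above (2.3% and 1.79% of all genes). All 5 Shunt libraries carry Xist and no sham library does, so that the load and the sex of the mice cannot be told apart in this comparison.

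Set against each other, Shunt libraries had 6 members higher and 1 lower than TAC libraries. These counts stood near or under the 13.3% of all genes that were higher and the 13.6% that were lower. The median log2 fold change of the members was 0.12 (all genes -0.01), 7 members were below 0 where 51.2% of all genes were, and groups did not overlap in 4 higher and 1 lower (12.2% and 12.5% of all genes). Between Shunt and TAC libraries that all carry Xist, that is without TAC 4, 18 members were higher and 1 lower (12.8% and 14.2% of all genes). That fit keeps TAC 1 and the library labelled TAC 2, and the latter had Ccnd2 at 228.2 CPM, against 17740 CPM or more in Shunt libraries. Without TAC 1, 3 were higher and 1 lower (11% and 11.1% of all genes). Without the library labelled TAC 2, 4 were higher and 0 lower (8.91% and 9.49% of all genes). Clock phase differed between all Shunt and all TAC libraries and cannot be told apart from the load.

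Unloaded transgenic hearts differed from WT hearts in fewer members and in both directions. Sham had 7 members higher and 2 lower than WT, near or under the 13.5% of all genes that were higher and the 14.9% that were lower. The median log2 fold change of the members was 0.04 (all genes -0.01), 16 members were below 0 where 51.8% of all genes were, and groups did not overlap in 6 higher and 1 lower (10.6% and 11.7% of all genes).

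**Figure D2:**
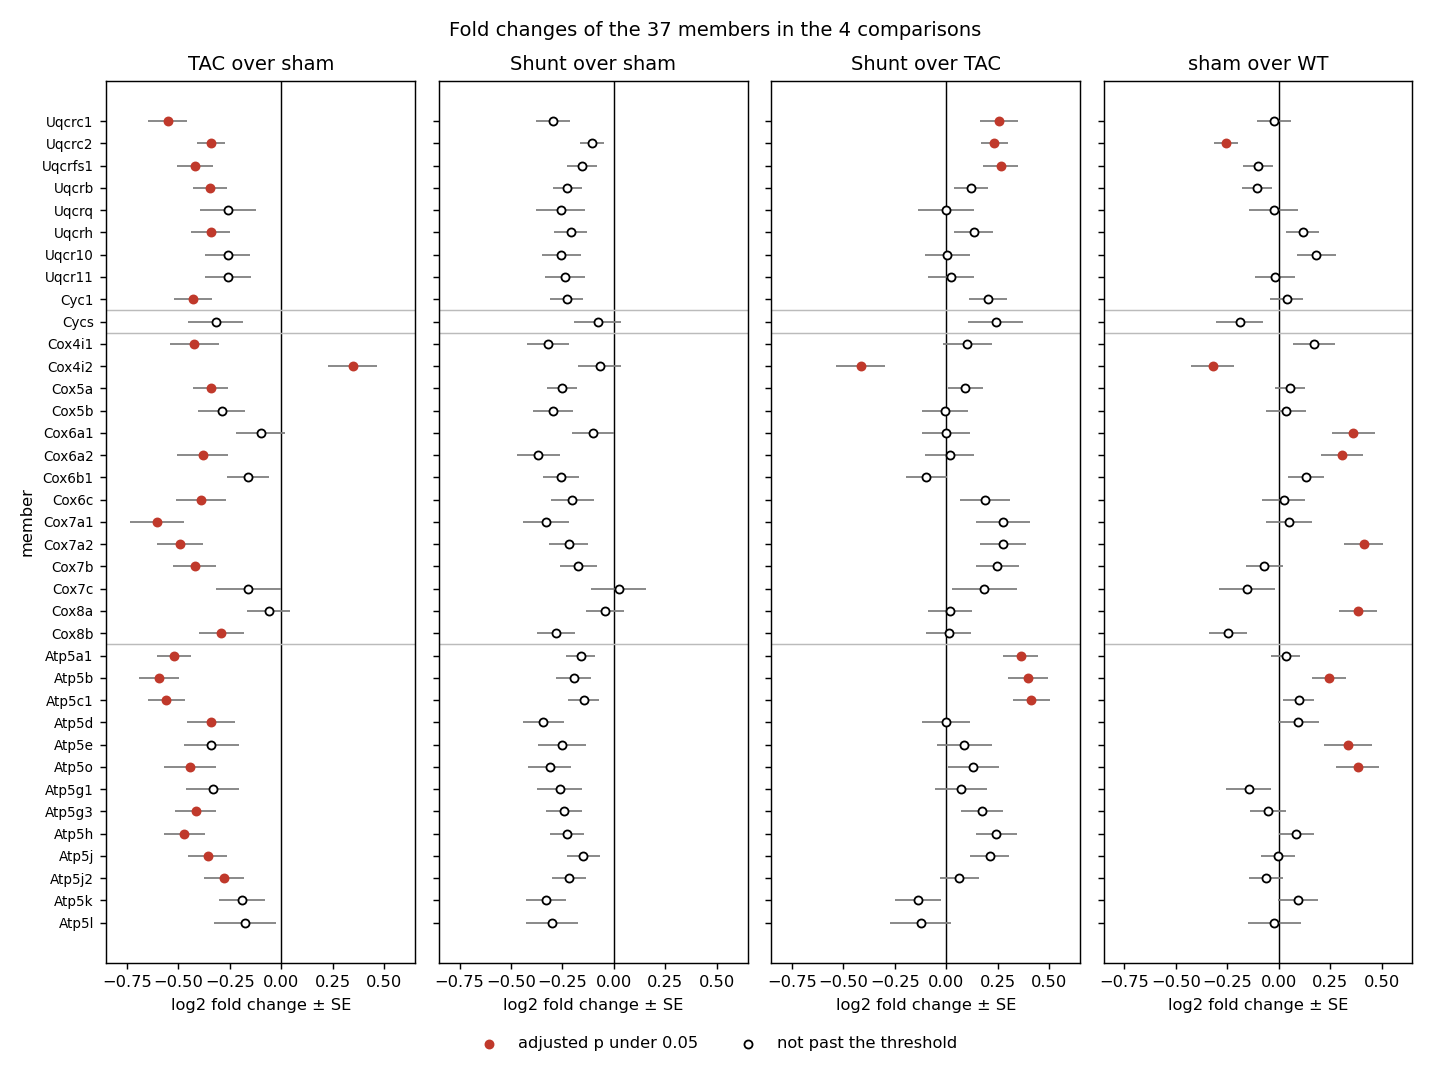
Log2 fold change with its SE (horizontal bars) for each of the 37 members, in panels for TAC over sham, Shunt over sham, Shunt over TAC and sham over WT; filled points passed an adjusted p of 0.05 and open points did not. TAC points sit left of 0 except Cox4i2 at 0.35, Shunt points lie between -0.37 and 0.02 with none filled, and the sham over WT panel shows 7 filled points right of 0 and 2 left.

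By pattern over the comparisons, 14 members were called lower in TAC against sham and nowhere else. Uqcrc1, Uqcrfs1, Atp5a1 and Atp5c1 were lower in TAC against sham and higher in Shunt against TAC, and Uqcrc2 and Atp5b were so too with a further difference between sham and WT. Cox7a2, Cox6a2 and Atp5o were higher in sham than in WT and lower in TAC than in sham. Cox6a1, Cox8a and Atp5e were called only in sham against WT, and Cox4i2 was called in each of the comparisons but Shunt against sham, opposite in sign to most others. The remaining 10 members, Uqcr10, Uqcr11, Uqcrq, Cycs, Cox5b, Cox6b1, Cox7c, Atp5g1, Atp5k and Atp5l, passed in none.

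**Figure D3:**
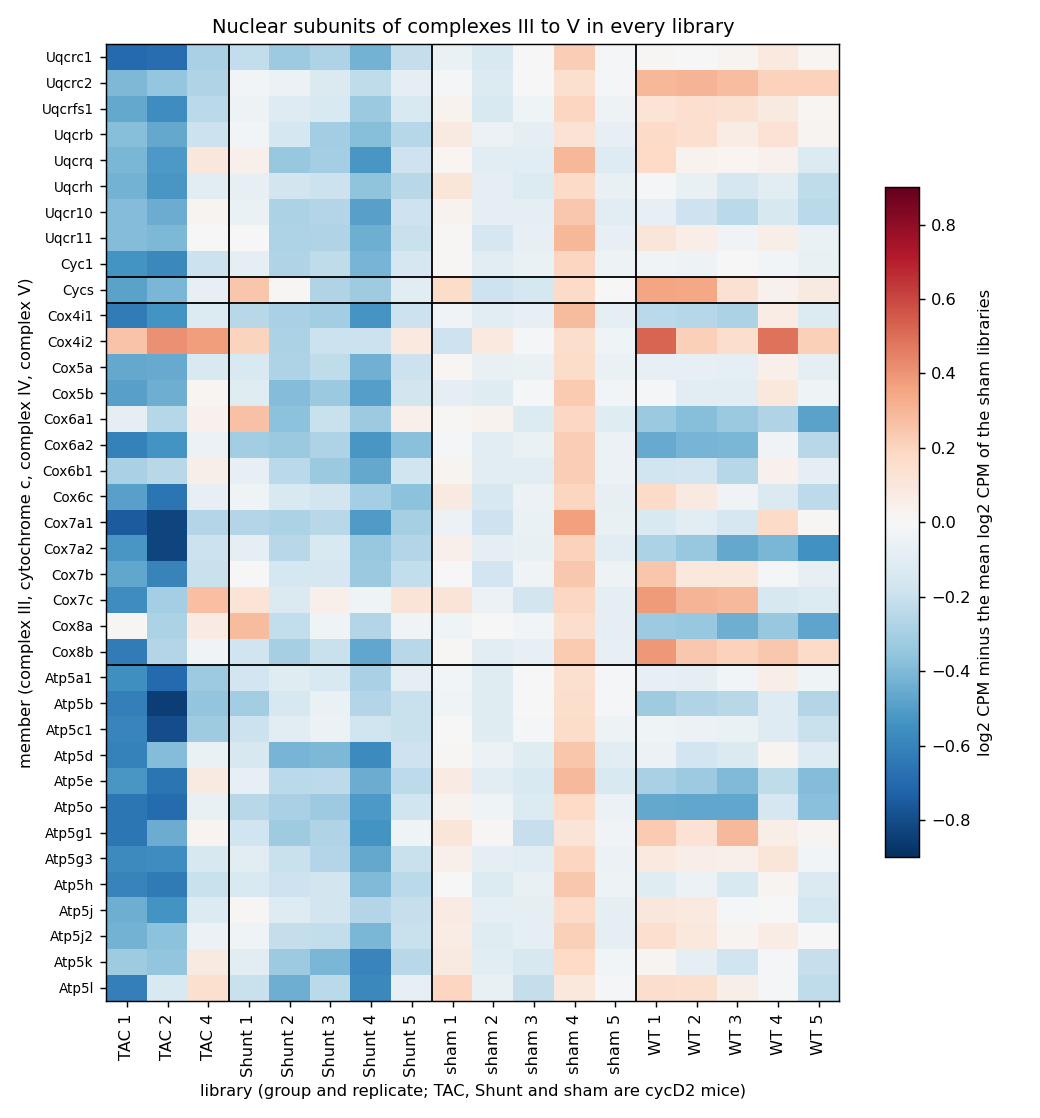
Log2 CPM of every member (rows) in every library (columns, TAC, Shunt, sham, WT) minus the mean log2 CPM of the sham libraries, blue below and red above. TAC 1 and the library labelled TAC 2 are blue in nearly every row, TAC 4 is close to sham, Cox4i2 runs against its neighbours, and WT columns are bluest at Cox7a2, Cox8a, Cox6a1 and Atp5o.

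Complex III. Uqcrc1 encodes core protein 1, a large subunit on the matrix side (chr9:108936633-108949623, plus strand, GRCm38). It had 1238, 1255 and 1645 CPM in TAC libraries, 1732, 1606, 1664, 1499 and 1738 in Shunt libraries, 1932, 1829, 2013, 2352 and 1986 in sham libraries, and 2025, 2013, 2053, 2143 and 2042 in WT libraries, in order of replicate. Every TAC and every Shunt library lay below every sham library, and sham and WT overlapped. The log2 fold change was -0.55 ± 0.09 (adjusted p = 0.000321) in TAC against sham, -0.30 ± 0.08 (adjusted p = 0.14) in Shunt against sham, and 0.26 ± 0.09 (adjusted p = 0.0497) in Shunt against TAC, the last with overlapping libraries and lost in 6 of 8 fits that left out a library.

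Uqcrc2, the second core protein (chr7:120635176-120659524), had 1096, 1138 and 1199 CPM in TAC libraries, 1423, 1393, 1320.2, 1235 and 1359 in Shunt libraries, 1431, 1331, 1445, 1601 and 1439.9 in sham libraries, and 1781, 1789, 1756, 1675 and 1667 in WT libraries. It was lower in TAC than in sham (-0.34 ± 0.07, adjusted p = 0.00107) and lower in sham than in WT (-0.26 ± 0.06, adjusted p = 0.00301), both without overlap, so that TAC, sham and WT formed steps. Shunt libraries overlapped sham (-0.11 ± 0.06, adjusted p = 0.403) and lay above every TAC library (0.23 ± 0.07, adjusted p = 0.0157). Within clock phase the difference between sham and WT was not called.

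Uqcrfs1, the Rieske iron-sulfur protein that passes an electron from ubiquinol to cytochrome c1, had 888, 827 and 1031 CPM in TAC libraries, 1181, 1125, 1108, 969 and 1112 in Shunt libraries, 1248, 1111, 1188, 1394 and 1181 in sham libraries, and 1328, 1358, 1346, 1291 and 1238 in WT libraries. No TAC library reached sham, with a log2 fold change of -0.42 ± 0.09 (adjusted p = 0.00127), and Shunt was higher than TAC (0.26 ± 0.08, adjusted p = 0.0276), although Shunt 4 at 969 CPM lay below TAC 4 and the call was lost in 4 of 8 fits that left out a library. Shunt against sham gave -0.16 ± 0.07 (adjusted p = 0.331). Cyc1, which encodes cytochrome c1 itself, had 997, 968 and 1263 CPM in TAC libraries, against 1457, 1354, 1385, 1652 and 1404 in sham libraries, again with no overlap (-0.43 ± 0.09, adjusted p = 0.00188).

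Among the small subunits, Uqcrb, which lies near a ubiquinone site, had 135, 128 and 154 CPM in TAC libraries, 173, 158, 142, 135 and 148 in Shunt libraries, and 187, 169.5, 166, 192 and 167 in sham libraries. It fell in TAC (-0.35 ± 0.08, adjusted p = 0.00428) with no overlap, while Shunt overlapped sham (-0.23 ± 0.07, adjusted p = 0.192). Uqcrh, the hinge protein between cytochrome c1 and cytochrome c, also fell in TAC (-0.34 ± 0.10, adjusted p = 0.0106). Uqcr10, Uqcr11 and Uqcrq, accessory subunits of the membrane part, had log2 fold changes of -0.26, -0.26 and -0.26 in TAC against sham and missed the threshold (adjusted p 0.0804, 0.0878 and 0.164). Of these, Uqcr10 had the smallest p against WT after Uqcrc2, with 463, 426, 425, 535 and 422 CPM in sham libraries, against 430.2, 398, 382, 409 and 383 in WT libraries (0.18 ± 0.09, adjusted p = 0.163, groups overlapping).

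Cytochrome c, the carrier between both complexes and a trigger of cell death once released, was measured as Cycs. It had 21.0, 22.0 and 27.7 CPM in TAC libraries, 34.8, 29.5, 24.2, 23.4 and 27.2 in Shunt libraries, 32.8, 25.7, 26.2, 32.9 and 29.3 in sham libraries, and 37.3, 37.2, 32.1, 30.0 and 31.0 in WT libraries. TAC libraries were low in the main, yet TAC 4 stood inside the sham range, and neither TAC (-0.32 ± 0.13, adjusted p = 0.0763) nor Shunt (-0.08 ± 0.11, adjusted p = 0.796) passed against sham.

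Complex IV. Cox5a, a nuclear subunit on the matrix side, had 587, 588 and 734 CPM in TAC libraries, 734, 665, 687, 599 and 706 in Shunt libraries, 817, 769.9, 775, 904 and 773 in sham libraries, and 765, 764, 762, 833 and 762 in WT libraries. Every TAC and every Shunt library lay below every sham library, and sham and WT overlapped. The difference passed in TAC (-0.34 ± 0.08, adjusted p = 0.00515) and not in Shunt (-0.25 ± 0.07, adjusted p = 0.161), although DESeq2 called it there (adjusted p = 0.0414). Cox5b, its zinc-binding neighbour, gave -0.29 ± 0.11 (adjusted p = 0.057) in TAC and -0.30 ± 0.10 (adjusted p = 0.201) in Shunt, and in Shunt its libraries did not overlap sham.

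Cox6c and Cox7b, small membrane subunits, fell in TAC with log2 fold changes of -0.39 ± 0.12 (adjusted p = 0.0213) and -0.42 ± 0.10 (adjusted p = 0.00549). Cox6b1, which joins the complexes into pairs, gave -0.16 ± 0.10 (adjusted p = 0.249) in TAC and -0.26 ± 0.09 (adjusted p = 0.209) in Shunt. Cox7c, the member whose fold change in Shunt was above 0, had 11.3, 13.5 and 20.1 CPM in TAC libraries, 18.2, 15.3, 17.2, 16.2 and 18.1 in Shunt libraries, and 18.1, 16.1, 14.9, 18.9 and 15.7 in sham libraries and passed in none of the comparisons.

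Subunit 4, which binds adenine nucleotides, occurs as Cox4i1 in most tissues and as Cox4i2, known from lung and smooth muscle and as a gene induced by low oxygen. Cox4i1 had 1301, 1386 and 1848 CPM in TAC libraries, 1696, 1646, 1622, 1395 and 1759 in Shunt libraries, 1974, 1884, 1910.1, 2457 and 1901 in sham libraries, and 1699, 1684, 1651, 2112 and 1848 in WT libraries. TAC and Shunt libraries all lay below sham, with log2 fold changes of -0.42 ± 0.12 (adjusted p = 0.0128) and -0.32 ± 0.10 (adjusted p = 0.198), and sham against WT gave 0.17 ± 0.10 (adjusted p = 0.231).

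Cox4i2 (chr2:152754173-152765037) ran the other way at a far lower level, with 12.7, 14.2 and 13.8 CPM in TAC libraries, 12.2, 8.73, 9.29, 9.31 and 11.3 in Shunt libraries, 9.33, 11.3, 10.5, 11.9 and 10.4 in sham libraries, and 15.3, 12.3, 11.8, 14.9 and 12.3 in WT libraries. Every TAC library lay above every sham and every Shunt library, while sham lay below WT but for Cox4i2 at 11.9 CPM in sham 4 and 11.8 CPM in WT 3. The log2 fold change was 0.35 ± 0.12 (adjusted p = 0.0345) in TAC against sham, -0.42 ± 0.12 (adjusted p = 0.0152) in Shunt against TAC, -0.32 ± 0.11 (adjusted p = 0.0285) in sham against WT and -0.07 ± 0.11 (adjusted p = 0.807) in Shunt against sham. The rise in TAC was lost when replicate numbers 1, 2 and 4 were treated as pairs (adjusted p = 0.0884) and in 5 of 8 fits that left out a library. That in sham against WT was lost in 5 of 10 such fits, and that in Shunt against TAC without the library labelled TAC 2.

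Some smooth muscle and pericyte genes also differed in these comparisons. Of 13 markers, 6 rose and 1 fell in TAC against sham (16.4% and 14.5% of all genes), with log2 fold changes from -0.64 to 1.25. In sham against WT 6 markers fell (14.9% of all genes), and in Shunt against TAC 1 rose and 5 fell (13.3% and 13.6% of all genes). Their summed level ranged over 2236 to 3114 CPM in TAC, 1921 to 2881 CPM in Shunt, 1991 to 2560 CPM in sham and 2539 to 2665 CPM in WT. Their part in the Cox4i2 result was not tested.

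As a share of both forms per kb of transcript, Cox4i2 made up 0.948% ± 0.150 in TAC (SD, n = 3), 0.650% ± 0.0775 in Shunt, 0.551% ± 0.0536 in sham and 0.772% ± 0.0919 in WT (n = 5 each). The log2 ratio of Cox4i2 to Cox4i1 counts was -6.68, -6.61 and -7.06 in TAC libraries, -7.12, -7.56, -7.45, -7.22 and -7.28 in Shunt libraries, -7.72, -7.38, -7.51, -7.69 and -7.52 in sham libraries, and -6.80, -7.09, -7.12, -7.14 and -7.23 in WT libraries. TAC stood above sham and Shunt, and sham below WT, with no overlap. The log2 ratio was higher by 0.78 in TAC than in sham (1.72-fold, SE 0.15, exact two-sided permutation p = 0.0179, the smallest that 3 against 5 allows; 0.0476 after adjustment over the 16 ratio comparisons). It was lower in Shunt than in TAC, a difference of -0.54 (exact permutation p = 0.0179, adjusted 0.0476). It was lower in sham than in WT, a difference of -0.49 (0.713-fold, SE 0.10, exact permutation p = 0.00794, adjusted 0.0476). Shunt against sham differed by 0.24 (exact permutation p = 0.0556, adjusted 0.111). Without the library labelled TAC 2, TAC exceeded sham by 0.70, and between libraries of the same clock phase by 0.77 with no overlap, where 3 against 2 libraries cannot give a p below 0.1.

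Subunit 6a occurs as Cox6a1 in most tissues and Cox6a2 in heart and skeletal muscle. Cox6a2 had 1465, 1536 and 2154 CPM in TAC libraries, 1801, 1774, 1841, 1552 and 1723 in Shunt libraries, 2205, 2092, 2142, 2609.8 and 2158 in sham libraries, and 1634, 1670.3, 1678, 2189 and 1883 in WT libraries. TAC 4 at 2154 CPM lay within the sham range, the other 2 TAC libraries and all 5 Shunt libraries lay below it, and sham and WT overlapped. The log2 fold change was -0.38 ± 0.12 (adjusted p = 0.023) in TAC, -0.37 ± 0.10 (adjusted p = 0.159) in Shunt and 0.31 ± 0.10 (adjusted p = 0.0341) in sham against WT, the last call lost in 4 of 10 fits that left out a library and with a clock term (adjusted p = 0.0529).

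Cox6a1 (chr5:115345642-115348981, minus strand), whose window above holds the NRF1, ETS and SP1 letters, had 103, 91.6 and 112 CPM in TAC libraries, 131, 84.8, 95.2, 86.9 and 113 in Shunt libraries, 109.9, 112, 100.5, 125 and 101 in sham libraries, and 86.8, 83.7, 86.9, 90.4 and 78.3 in WT libraries. Sham libraries all exceeded WT libraries (0.36 ± 0.10, adjusted p = 0.0133), whereas TAC (-0.10 ± 0.12, adjusted p = 0.553) and Shunt (-0.10 ± 0.10, adjusted p = 0.693) overlapped sham. Cox6a1 made up 6.73% ± 0.927 of both forms per kb in TAC (SD, n = 3), 6.53% ± 1.06 in Shunt, 5.51% ± 0.295 in sham and 5.36% ± 0.611 in WT (n = 5 each). The log2 ratio of Cox6a1 to Cox6a2 was 0.30 higher in TAC than in sham (exact permutation p = 0.0357, adjusted 0.0816), 0.25 higher in Shunt than in sham (p = 0.0635, adjusted 0.113, exact permutation) and 0.05 higher in sham than in WT (exact permutation p = 0.563, adjusted 0.694). None of these passed, and sham exceeded WT in the levels of both forms.

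Subunit 7a occurs as Cox7a2 in most tissues and Cox7a1 in heart and skeletal muscle, the pair whose upstream windows are shown above. Cox7a1 (chr7:30184144-30186078) had 520.3, 493 and 728 CPM in TAC libraries, 728, 718, 736, 616 and 713 in Shunt libraries, 844, 769, 839, 1131 and 834 in sham libraries, and 795, 821, 789, 984 and 882 in WT libraries. All TAC and Shunt libraries lay below all sham libraries, and Cox7a1 had the largest fall of the 37 members in TAC, -0.61 ± 0.13 (adjusted p = 0.00203). Shunt gave -0.33 ± 0.11 (adjusted p = 0.209) against sham and 0.28 ± 0.13 (adjusted p = 0.124) against TAC.

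Cox7a2 (chr9:79755361-79759878, minus strand) had 356, 289 and 448 CPM in TAC libraries, 480.5, 430.4, 465, 403 and 426 in Shunt libraries, 527, 482, 488, 590.0 and 478 in sham libraries, and 419, 403, 371, 384 and 351 in WT libraries. It was highest in sham, where every library exceeded every WT library (0.41 ± 0.10, adjusted p = 0.00355) and every TAC library (-0.49 ± 0.11, adjusted p = 0.00278), and Shunt overlapped sham (-0.22 ± 0.10, adjusted p = 0.303). In Shunt against TAC it gave 0.28 ± 0.11 (adjusted p = 0.0723). Cox7a2 made up 27.2% ± 1.58 of both forms per kb in TAC (SD, n = 3), 27.2% ± 0.939 in Shunt, 25.9% ± 1.42 in sham and 21.3% ± 2.20 in WT (n = 5 each).

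The log2 ratio of Cox7a2 to Cox7a1 was -0.55, -0.77 and -0.70 in TAC libraries, -0.60, -0.74, -0.66, -0.61 and -0.74 in Shunt libraries, -0.68, -0.68, -0.78, -0.94 and -0.80 in sham libraries, and -0.92, -1.03, -1.09, -1.36 and -1.33 in WT libraries. It was higher by 0.37 in sham than in WT (1.29-fold, SE 0.098, exact two-sided permutation p = 0.0159, adjusted 0.0476), with sham 4 at -0.94 just below WT 1 at -0.92. In TAC (0.10, exact permutation p = 0.286, adjusted 0.381) and in Shunt (0.10, exact permutation p = 0.111, adjusted 0.162) the ratio did not pass against sham, both forms having fallen in TAC. WT 4 and 5, with Dbp above Arntl, had the lowest ratios, and within that clock phase sham exceeded WT by 0.50, against 0.34 where Arntl exceeded Dbp, in each case with no overlap.

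Subunit 8 occurs as Cox8a in most tissues and Cox8b in heart and skeletal muscle. Cox8b (chr7:140898945-140900446, minus strand) had 308, 397 and 464 CPM in TAC libraries, 419.6, 386, 415, 343 and 400.4 in Shunt libraries, 479, 444, 452, 559 and 453 in sham libraries, and 622, 561, 550.0, 562 and 535 in WT libraries. TAC and Shunt means lay below the sham mean, with TAC (-0.29 ± 0.11, adjusted p = 0.0481) overlapping and Shunt (-0.28 ± 0.09, adjusted p = 0.206) not, and sham was lower than most WT libraries (-0.25 ± 0.09, adjusted p = 0.0553). The call in TAC was lost in 6 of 8 fits that left out a library and in the fit with paired replicates, where the log2 fold change was -0.31 (adjusted p = 0.0643).

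Cox8a (chr19:7215153-7217616, minus strand) had 159, 130.1 and 167 CPM in TAC libraries, 193, 136, 154, 132 and 156 in Shunt libraries, 154, 158, 156, 177 and 149 in sham libraries, and 126, 125, 117, 125 and 114 in WT libraries. Every sham library exceeded every WT library (0.38 ± 0.09, adjusted p = 0.00434), and TAC (-0.06 ± 0.11, adjusted p = 0.698) and Shunt (-0.04 ± 0.09, adjusted p = 0.867) overlapped sham. Its share of both forms per kb was 20.7% ± 4.06 in TAC (SD, n = 3), 20.4% ± 1.66 in Shunt, 17.9% ± 0.720 in sham and 12.3% ± 0.425 in WT (n = 5 each).

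The log2 ratio of Cox8a to Cox8b was -0.95, -1.61 and -1.47 in TAC libraries, -1.12, -1.50, -1.42, -1.38 and -1.36 in Shunt libraries, -1.64, -1.49, -1.53, -1.66 and -1.60 in sham libraries, and -2.30, -2.16, -2.23, -2.16 and -2.23 in WT libraries. Sham exceeded WT by 0.63 with a wide gap (1.55-fold, SE 0.04, exact two-sided permutation p = 0.00794, the smallest that 5 against 5 allows, adjusted 0.0476), and by 0.67 and 0.60 within the clock phases. Shunt exceeded sham by 0.23 (1.17-fold, SE 0.072, exact permutation p = 0.0159, adjusted 0.0476), with only Shunt 2 inside the sham range. TAC exceeded sham by 0.24 (exact permutation p = 0.0893, adjusted 0.143), and by 0.04 without TAC 1, which stood at -0.95. In sham against WT, the ratios of Cox7a2 and Cox8a to the heart forms were thus higher and that of Cox4i2 to Cox4i1 lower.

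**Figure D4:**
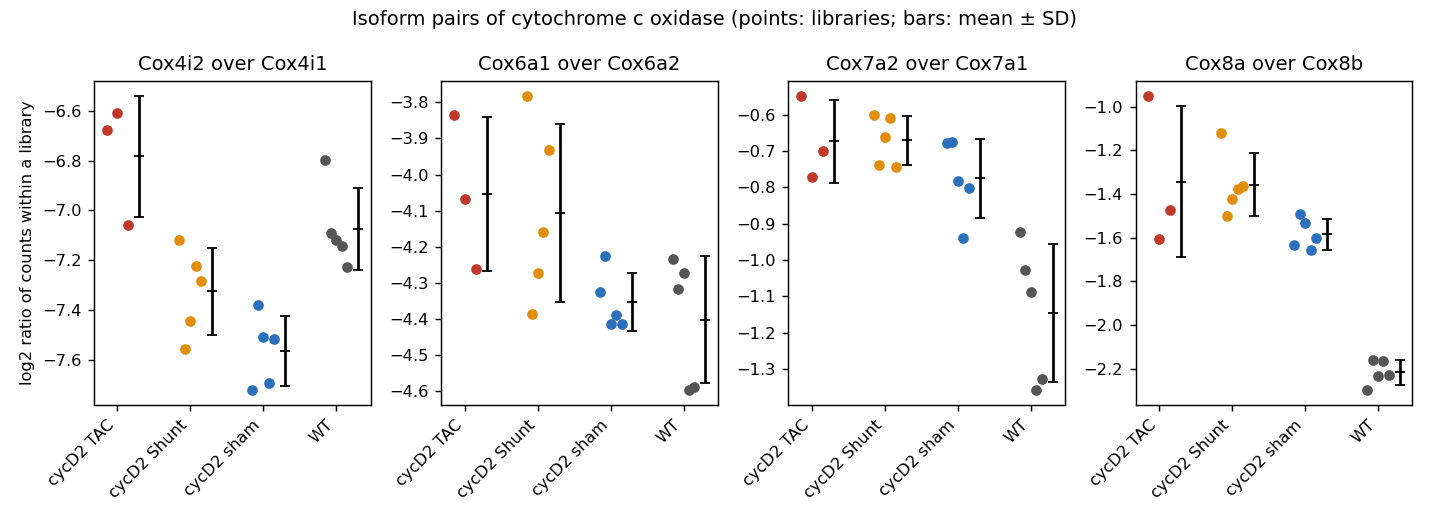
Log2 ratio of the counts of Cox4i2 to Cox4i1, Cox6a1 to Cox6a2, Cox7a2 to Cox7a1 and Cox8a to Cox8b in each library (points) with the mean ± SD of each group (bars), for TAC (n = 3), Shunt, sham and WT (n = 5 each). Cox8a to Cox8b averages -2.22 in WT and -1.58 in sham with no overlap, and Cox4i2 to Cox4i1 averages -6.78 in TAC, above the -7.56 of sham.

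Skeletal muscle and atrial genes also differed between sham and WT. Of 7 skeletal muscle markers tested, 6 rose in sham, with the list's summed level at 27.4 to 39.3 CPM in sham against 2.98 to 4.19 CPM in WT, and 4.14 to 23.6 CPM in TAC and 22.3 to 28.4 CPM in Shunt. Of 6 atrial markers tested, 3 rose in sham, and their sum ranged over 95.3 to 420.0 CPM in TAC, 63.5 to 544 CPM in Shunt, 84.7 to 847 CPM in sham and 29.6 to 73.6 CPM in WT. Endothelial markers fell in sham for 6 of 12. With an atrial score as a term in the fit, Cox7a2, Cox8a, Cox6a1 and Atp5o were still higher and Uqcrc2 lower in sham. Cox6a2, Atp5b and Atp5e missed the threshold with log2 fold changes of 0.35, 0.28 and 0.39 (adjusted p 0.0545, 0.0538 and 0.0509), and Cox4i2 missed it at -0.24 (adjusted p = 0.184). The part of skeletal muscle and endothelial genes was not tested.

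Complex V. Atp5a1 and Atp5b encode the alpha subunit and the catalytic beta subunit of the F1 head, and Atp5c1 the gamma subunit, the shaft that turns inside it. Atp5a1 had 5067, 4582 and 5935 CPM in TAC libraries, 6599, 6921, 6756, 6079.8 and 7004 in Shunt libraries, 7332, 6904, 7449.7, 8241 and 7367 in sham libraries, and 7066, 7049, 7324, 7764 and 7232 in WT libraries. TAC libraries lay below all others, with a log2 fold change of -0.52 ± 0.08 (adjusted p = 0.000188) against sham, and Shunt was higher than TAC (0.36 ± 0.08, adjusted p = 0.00377). Shunt 2 at 6921 CPM and Shunt 5 at 7004 CPM reached into the sham range (-0.16 ± 0.07, adjusted p = 0.307).

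Atp5b (chr10:128083273-128090391), the highest member per kb, had 6195, 5261 and 7430.5 CPM in TAC libraries, 7648, 8572, 9109, 7891 and 8269.5 in Shunt libraries, 9233, 8813, 9458, 10611 and 9404 in sham libraries, and 7588, 7855, 7984, 8767 and 7902 in WT libraries. It was 6295 ± 1088 CPM in TAC and 9504 ± 669 CPM in sham (mean ± SD, n = 3 and 5), a log2 fold change of -0.59 ± 0.10 (adjusted p = 0.000228) without overlap. Shunt exceeded TAC (0.40 ± 0.10, adjusted p = 0.00562) and sham exceeded WT (0.25 ± 0.08, adjusted p = 0.0339), the last call lost in 7 of 10 fits that left out a library. The SP1 letters of its window are also found in 32.7% of all windows.

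Atp5c1 (chr2:10056016-10080510, minus strand) had 1101, 954 and 1332 CPM in TAC libraries, 1456, 1547, 1601, 1464 and 1449 in Shunt libraries, 1663, 1540.1, 1645, 1863 and 1612 in sham libraries, and 1616, 1602, 1592, 1529 and 1445 in WT libraries. All TAC libraries lay below all Shunt and all sham libraries, with -0.56 ± 0.09 (adjusted p = 0.000192) against sham and 0.41 ± 0.09 (adjusted p = 0.0025) for Shunt against TAC. Atp5c1 was also the member called higher in Shunt than in TAC when the fit held these 2 groups alone or carried a clock term. These 3 genes were the members of complex V that passed in Shunt against TAC, and none of the 3 was lost in a fit that left out a library in that comparison or in TAC against sham.

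Of the central stalk, Atp5d (delta) had 507, 587 and 738 CPM in TAC libraries, 697, 576, 583, 518 and 677 in Shunt libraries, and 777, 742, 716, 915 and 721 in sham libraries. It fell in TAC (-0.34 ± 0.12, adjusted p = 0.032) with TAC 4 inside the sham range, and in Shunt it did not pass (-0.34 ± 0.10, adjusted p = 0.164) though no library overlapped. Atp5e (epsilon) was higher in sham than in WT (0.34 ± 0.12, adjusted p = 0.0376; lost in 6 of 10 fits that left out a library) and gave -0.34 ± 0.14 (adjusted p = 0.0646) in TAC, where DESeq2, limma-voom and the paired fit called it (adjusted p 0.0436, 0.0431 and 0.0333).

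The peripheral stalk keeps the head from turning with the shaft. Atp5o, its OSCP subunit, had 651, 631 and 974 CPM in TAC libraries, 859.5, 834, 813, 714 and 900.0 in Shunt libraries, 1044, 992, 937, 1159 and 987 in sham libraries, and 740.3, 737, 738, 921 and 788 in WT libraries. All sham libraries exceeded all WT and all Shunt libraries, and TAC 4 at 974 CPM stood inside the sham range. Its log2 fold change was 0.38 ± 0.11 (adjusted p = 0.0118) in sham against WT, -0.44 ± 0.12 (adjusted p = 0.0114) in TAC and -0.31 ± 0.11 (adjusted p = 0.209) in Shunt against sham. Atp5h (subunit d) and Atp5j (F6), of the same stalk, fell in TAC (-0.47 ± 0.10, adjusted p = 0.00156 and -0.36 ± 0.10, adjusted p = 0.00823).

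Atp5g1 and Atp5g3 encode the same mature c subunit, which forms the rotor ring in the membrane. Atp5g3, the abundant source, fell in TAC (-0.42 ± 0.10, adjusted p = 0.00462) and gave -0.24 ± 0.09 (adjusted p = 0.224) in Shunt. Atp5g1 gave -0.33 ± 0.13 (adjusted p = 0.0568) in TAC, past the threshold by DESeq2 and limma-voom (adjusted p 0.0389 and 0.0415). Atp5j2 (subunit f) fell in TAC (-0.28 ± 0.10, adjusted p = 0.0339), lost in 4 of 8 fits that left out a library.
Atp5k (subunit e) and Atp5l (subunit g) sit where ATP synthases pair. Atp5k had 382, 373 and 504 CPM in TAC libraries, 448, 381, 359, 316 and 402 in Shunt libraries, and 506, 448, 432, 541 and 469 in sham libraries. Shunt libraries were the lower ones here (-0.33 ± 0.10, adjusted p = 0.171 in Shunt, -0.19 ± 0.11, adjusted p = 0.215 in TAC), with overlap in both. Atp5l gave -0.18 ± 0.15 (adjusted p = 0.391) in TAC and -0.30 ± 0.13 (adjusted p = 0.294) in Shunt.

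The fall in TAC differed between its libraries. Xist had 3659 and 2644 counts in TAC 1 and the library labelled TAC 2, 4 counts in TAC 4 and 5 to 11 counts in sham libraries. In TAC 1 and the library labelled TAC 2, load and sex cannot be told apart. The members took 2.99%, 2.99% and 3.69% of gene counts in TAC 1, the library labelled TAC 2 and TAC 4, 3.50% to 3.89% in Shunt libraries, 4.03% to 4.67% in sham libraries and 3.94% to 4.21% in WT libraries. The median over members of the log2 deviation from the sham mean was -0.49, -0.52 and -0.07 in the same TAC libraries, and TAC 4 was the highest TAC library for 36 of the 37 members. In TAC 1, 34 members lay below every sham library, in the library labelled TAC 2 35 and in TAC 4 16. In Shunt libraries the median deviation lay between -0.08 and -0.42, with Shunt 4 lowest of its group for 31 members, and sham 4 was the highest sham library for 36 members at 0.19.

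Calls in TAC against sham depended on these libraries. Without the library labelled TAC 2, 14 members were lower, all among the 23, with a median of -0.29 (10.2% of all genes were lower). Without TAC 1, 15 were lower, all among the 23, with a median of -0.29 (11% of all genes). Without TAC 4, 32 were lower, all 23 included, with a median of -0.50 (15.9% of all genes). With the level of Y-linked genes as a term, so that TAC 4 alone carried the contrast with sham, 0 members were called and the median was -0.06, while calls over all genes fell to 2.25% higher and 1.71% lower. Within the clock phase that TAC shares with sham 1 and 2, 36 of 37 members were below 0 with a median of -0.33, and Atp5c1 was called, where 4.39% of all genes were lower. Uqcrc1, Uqcrc2, Uqcrfs1, Cyc1, Uqcrb, Cox5a, Cox7a1, Cox7a2, Cox7b, Atp5a1, Atp5b, Atp5c1, Atp5g3 and Atp5h passed in all 8 fits that left out a TAC or sham library.

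**Figure D5:**
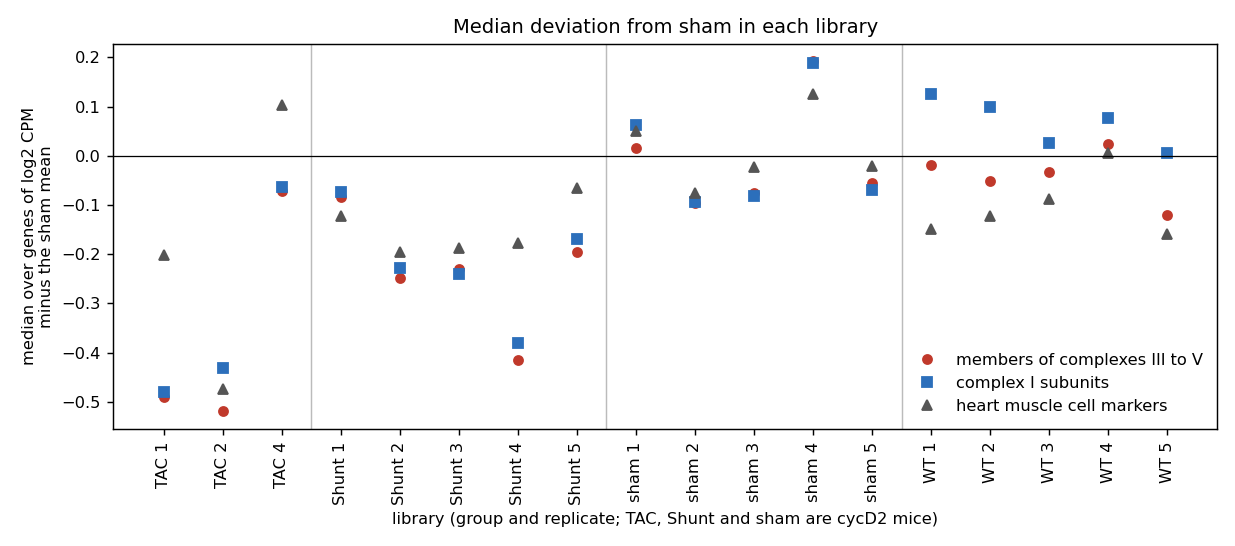
Median over genes of the log2 CPM deviation from the sham mean in each library, for the 37 members (circles), complex I subunits (squares) and heart muscle cell markers (triangles). Members and complex I take similar values in TAC, Shunt and sham libraries, with members at -0.49 and -0.52 in TAC 1 and the library labelled TAC 2 and at -0.07 in TAC 4.

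Members with higher CPM had lower fold changes in TAC. Across the 37 genes, the log2 fold change of TAC against sham and the sham CPM had a Spearman correlation of -0.722 (Pearson -0.727 on log2 CPM), and with coding length it was -0.504. Genes measured in the same libraries are not independent, and longer and more abundant members have more counts. Sham CPM is also the reference level of this fold change, so both measures draw on the same values. Members at the low end include Cycs, Cox7c and Atp5l, whose levels are uncertain, and Cox4i2, the member above 0. No test applies.

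Markers of other cell types also differed in TAC libraries. Of all genes, 16.4% rose and 14.5% fell in TAC against sham. Of 11 fibroblast markers 9 rose in TAC against sham, with a summed level of 4706 to 11208 CPM in TAC against 2591 to 4283 CPM in sham, and 2780 to 4223 CPM in Shunt and 3536 to 4088 CPM in WT. Of 12 endothelial markers 5 rose, and 0 of 10 macrophage markers. Without the library labelled TAC 2, 7 fibroblast and 2 endothelial markers rose (11.9% of all genes). Without TAC 4, 10 fibroblast, 1 endothelial and 5 macrophage markers rose (17% of all genes). Among 15 heart muscle markers 6 fell and 3 rose, their sum being 89484 to 130798 CPM in TAC against 129211 to 145246 CPM in sham, and 119370 to 127081 CPM in Shunt and 113224 to 128860 CPM in WT. The median deviation of heart muscle markers was -0.20 in TAC 1, -0.47 in the library labelled TAC 2 and 0.10 in TAC 4. Of 8 brown and white fat markers 4 were tested, and 0 were called in TAC against sham (median log2 fold change 0.77, all 4 above 0). The sum of the list was 28.9 to 42.9 CPM in TAC, 18.2 to 32.6 CPM in Shunt, 25.2 to 35.6 CPM in sham and 30.9 to 35.4 CPM in WT. Ucp1, the defining marker of brown fat, had 0 counts in 12 libraries and at most 1 count, while Adipoq, Plin1 and Cidec reached 44, 51 and 50 counts. The part of these cell types in the fall of the members was not tested.

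The rest of the respiratory chain was measured in the same fits. In TAC against sham 14.5% of all genes were lower (10.2% without the library labelled TAC 2, 11% without TAC 1). Of 36 complex I subunits 21 were lower in TAC than in sham (median log2 fold change -0.31; 12 lower and a median of -0.27 without the library labelled TAC 2, 11 and -0.23 without TAC 1), among them Ndufs1 at 813 ± 117 CPM in TAC and 1125 ± 77.9 CPM in sham (-0.47 ± 0.08, adjusted p = 0.000344). Of 8 complex II genes 4 were lower, with Sdha, its flavoprotein subunit, at 1523 ± 281 CPM in TAC and 2469 ± 143 CPM in sham (-0.70 ± 0.10, adjusted p = 5.46e-05). Sdha was also higher in Shunt than in TAC (0.57 ± 0.09, adjusted p = 0.000394). Of 8 further genes of complexes III to V tested, 2 were lower (1 without TAC 1 or without the library labelled TAC 2). These were Atp5f1, subunit b of the peripheral stalk (-0.47 ± 0.08, adjusted p = 0.000398), and Ndufa4, a subunit of complex IV (-0.34 ± 0.10, adjusted p = 0.0139).
In sham against WT, 5 of 36 complex I subunits were lower and 1 higher, near or under the 14.9% and 13.5% of all genes. The complex II assembly factors Sdhaf2, Sdhaf3 and Sdhaf4 were lower, with Sdhaf2 at -0.47 ± 0.07 (adjusted p = 7.39e-05). Of the 8 further genes of complexes III to V, 3 were lower, where 14.9% of all genes were. These were Atp5s (-0.54 ± 0.08, adjusted p = 0.000117), Atpif1, the inhibitor of ATP synthase, and Cox7a2l. In Shunt against sham none of these lists had a gene called.

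Some assembly factors of complexes III to V were called in TAC against sham and in sham against WT. In TAC against sham, 9 of 32 tested were lower and 2 higher (median log2 fold change -0.11), where 14.5% of all genes were lower and 16.4% higher. Without the library labelled TAC 2, 5 were lower and 1 higher (10.2% and 11.9% of all genes). Without TAC 1, 5 were lower and 4 higher (11% and 12.3% of all genes). Cox19, a copper handling factor of complex IV, was at 81.7 ± 3.35 CPM in TAC and 40.9 ± 4.19 CPM in sham (1.00 ± 0.13, adjusted p = 3.78e-05). Lrpprc, which stabilises mitochondrial mRNAs, and Coa7 fell (-0.37 ± 0.06, adjusted p = 0.000222 and -0.55 ± 0.10, adjusted p = 0.000451). In Shunt against TAC, 4 of 32 were higher and 3 lower, no more than the 13.3% and 13.6% of all genes, with Cox19 at -1.01 ± 0.13 (adjusted p = 4.76e-05). In sham against WT, 14 were lower and 0 higher (median -0.15), where 14.9% of all genes were lower and 13.5% higher. The subunits had 7 higher and 2 lower there, near or under those shares. Ttc19, an assembly factor of complex III, was at 48.7 ± 2.50 CPM in sham and 74.0 ± 9.20 CPM in WT (-0.60 ± 0.08, adjusted p = 2.50e-05), and Atpaf1, of the ATP synthase head, gave -0.53 ± 0.09 (adjusted p = 0.000294).

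Of 18 regulators of nuclear respiratory genes, 7 were lower and 1 higher in TAC than in sham (14.5% and 16.4% of all genes). Without the library labelled TAC 2, 3 were lower and 0 higher (10.2% and 11.9% of all genes). Without TAC 1, 4 were lower and 0 higher (11% and 12.3% of all genes). Ppara, a nuclear receptor for fatty acid use, was at 26.4 ± 1.85 CPM in TAC and 42.8 ± 5.45 CPM in sham (-0.69 ± 0.17, adjusted p = 0.00536). Gabpa, a subunit of the ETS factor GABP, gave -0.34 ± 0.09 (adjusted p = 0.01). Exons of Gabpa overlap those of the member Atp5j on the opposite strand, and these libraries keep no strand, so the fall of Gabpa may not be separate from that of Atp5j. Esrrb rose in TAC (0.35 ± 0.10, adjusted p = 0.0107) and was lower in sham than in WT (-0.66 ± 0.09, adjusted p = 3.58e-05). In Shunt against TAC, where clock phase and load cannot be told apart, 5 regulators were higher (13.3% of all genes). Among these, Ppara gave 1.03 ± 0.17 (adjusted p = 0.000453) and Ppargc1b, a coactivator, 0.78 ± 0.14 (adjusted p = 0.00065). Ppargc1a, the related coactivator, was at 262 ± 125 CPM in Shunt and 148 ± 9.42 CPM in sham and did not pass (0.83 ± 0.22, adjusted p = 0.135).
Of 11 genes that move ADP, ATP, phosphate and creatine, 5 were lower and 1 higher in TAC than in sham (14.5% and 16.4% of all genes). Slc25a3, the phosphate carrier that supplies ATP synthase, gave -0.47 ± 0.08 (adjusted p = 0.000387), and Ckb, brain-type creatine kinase, 0.73 ± 0.15 (adjusted p = 0.00142). Sham was lower than WT in Ckmt2 and Ckm, the mitochondrial and cytosolic muscle creatine kinases (-0.41 ± 0.09, adjusted p = 0.00211 and -0.36 ± 0.09, adjusted p = 0.00495).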

How the data were processed

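The authors deposited whole-number read counts per gene for each library. Tools named per the submitters' processing notes are HTSeq (0.6.1p1), STAR (2.3.0e), DESeq2 (1.8), CASAVA (1.8.2), SAMtools (0.1.19) and FastQC, with build GRCm38 (mm10); the annotation release is not given in the sources used here. Libraries were made with a TruSeq RNA v2 kit, which keeps no strand, so reads of a gene and of an antisense partner cannot be told apart; Uqcrc2, Uqcrb, Cox4i1, Cox5a, Cox6a2, Cox6c, Atp5a1, Atp5d, Atp5o, Atp5j and Atp5l overlap exons on the opposite strand.

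From the deposited counts, 5 summary lines were set aside. Reads outside genes had medians of 14.5% in TAC, 18.2% in Shunt, 16.4% in sham and 21.8% in WT libraries. Genes were tested with edgeR 4.0.16 (R 4.3.3; TMM scaling, filterByExpr with a minimum count of 10, quasi-likelihood F test, 1 mean per group over all 18 libraries) and Benjamini-Hochberg adjustment over 14876 genes, with a threshold of 0.05. On simulated counts, 200 genes changed by 2-fold among 14876 were recovered for 73% in TAC against sham, 82% in Shunt against sham, 76% in Shunt against TAC and 77% in sham against WT. False calls numbered 3, 10, 8 and 8 in the same order. Log2 fold changes of the members lay between -0.61 and 0.41, all smaller than 2-fold. The simulation therefore does not give the recovery of changes of their size. Isoform ratios used counts plus 0.5 and an exact two-sided permutation test over libraries. Symbols, lengths and coordinates came from GENCODE M21 (36602 identifiers matched), and similar transcripts from blastn 2.17.0. Alternatives were DESeq2 1.42.0, limma-voom (limma 3.58.1), RLE and upper quartile scaling, other filters, a replicate block, 2-group fits, Y-linked, clock and atrial terms, clock-phase subsets and left-out libraries.

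No libraries of a group agreed within sampling noise (lowest chi-square per gene 6.72). Same-numbered TAC and sham libraries deviated together (correlations 0.118, 0.155 and 0.129, each over the limit of 0.1), so the replicate block is given beside results it changes in that comparison. Values in every library are given for the isoform pairs. For the 2 members of each complex with the smallest p in a comparison, library values are given at least for the groups compared. Some library values are also given for Cyc1, Cycs and Cox7c. From other lists up to 3 genes of smallest p were named. The members and lists were chosen with earlier results of these data known.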

Additional observations from a re-analysis of the deposited data

Results flagged for a closer look

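In 6 of 123 groups of 5 libraries, the highest or lowest library stood farther from the next than Dixon's critical value (0.71) allows. Chance alone flags about 1 in 20 such groups, here 6.2. Shunt 4 had the lowest Cox7a1 of its group at 616 CPM. In sham 4, the highest values of the group were Cox4i1 at 2457 CPM, Cox5b at 245 CPM, Cox6a2 at 2609.8 CPM and Cox7a1 at 1131 CPM. WT 4 had the highest Cox5a of its group at 833 CPM. Sham 4 was also the highest sham library for 36 of the 37 members.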

How the results depend on the processing

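Counts below are of members among 37. Percentages in brackets are the shares of all genes in the same fit, in the same order. Sham against WT, with 7 higher and 2 lower, gave 4 higher and 1 lower with an atrial term (11.1% and 11.4%). It gave 4 higher with a clock term (13.8%) and 1 lower with no filter on low counts (6.69%). Within a clock phase it gave 1 higher and 0 lower where Arntl exceeded Dbp (3.23% and 4.44%), and 1 higher and 0 lower where Dbp exceeded Arntl (6.38% and 5.73%). Leaving out a library gave 4 to 7 higher and 1 to 3 lower (10.4% to 13.8% and 11.9% to 13.9%). The count higher was 4 without sham 4 or without WT 1, 2 or 3. TAC against sham, with 1 higher and 23 lower, gave 0 higher and 0 lower with a Y-linked term (2.25% and 1.71%) and 0 higher with no filter (8.31%). It gave 0 higher and 1 lower where Arntl exceeded Dbp (5.57% and 4.39%), and 15 lower with only these 2 groups (10.8%). Treating replicate numbers as pairs (replicate block) gave 0 higher and 23 lower (15% and 12.7%), 22 of them shared, with Cox4i2 and Cox8b lost and Atp5e gained. In the other comparisons, not every correlation of same-numbered libraries was over 0.1. There the block gave 6 higher and 1 lower in Shunt against TAC (11.2% and 11.6%), Cox7a2 gained and Uqcrc1 lost. It moved no call in sham against WT or in Shunt against sham. Leaving out a library in TAC against sham gave 0 to 1 higher and 14 to 32 lower (11.9% to 17% and 10.2% to 15.9%). The text above gives the fits without TAC 1, TAC 4 and the library labelled TAC 2. Shunt against sham gave 3 lower with DESeq2 (0.814%) alone among the alternatives. The Y-linked term rests on TAC 4 against TAC 1 and the library labelled TAC 2, since each other group holds libraries of 1 kind. Shunt against TAC, with 6 higher and 1 lower, gave 21 higher and 0 lower with a Y-linked term (9.24% and 10.7%). It gave 1 higher with a clock term (7.23%) and 1 higher and 0 lower with only these 2 groups (8.79% and 9.78%). When a library was left out, 3 to 18 were higher and 0 to 1 lower (8.91% to 14.5% and 9.49% to 14.8%). The counts were 3 higher without TAC 1, and 4 higher and 0 lower without the library labelled TAC 2. No cause of these changes was tested.

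Of the ratios that passed, differences within clock phase, an alternative chosen after seeing the data, kept their sign and did not pass. In sham against WT and in TAC against sham, 2 against 3 libraries cannot give an exact permutation p below 0.1, and in Shunt against sham the adjusted p was 0.1. For Cox4i2 to Cox4i1 they were -0.55 and -0.39 in sham against WT and 0.77 in TAC against sham, for Cox7a2 to Cox7a1 0.34 and 0.50 in sham against WT, and for Cox8a to Cox8b 0.67 and 0.60 in sham against WT and 0.24 in Shunt against sham. Leaving out a library, which raises the smallest possible p, gave -0.53 to -0.42, 0.70 to 0.92 and, in Shunt against TAC, -0.68 to -0.46 for Cox4i2; 0.32 to 0.43 for Cox7a2; 0.61 to 0.65 in sham against WT and 0.17 to 0.26 in Shunt against sham for Cox8a; and 0.17 to 0.32 for Cox6a1 in Shunt against sham, which passed without Shunt 2 (adjusted exact permutation p = 0.0476).

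The 3 TAC libraries, of which 1 lacks the transgene's level of Ccnd2, limit what TAC comparisons show. Counts of the other gene lists without a TAC library were likewise chosen after seeing the data.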
